A study of Mus musculus with 8 samples.

Results

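The genes described here are 9 members of eicosanoid synthesis, the making of leukotrienes and prostaglandins: Alox5ap, Alox5, Ltc4s, Lta4h, Ptgs1, Ptgs2, Ptges, Ptgds and Hpgds. They were taken by gene name from a deposited table of 54091 rows, and all 9 had a row. The genes were chosen with the difference between the groups already known, so their own differences are given as a description, with no test. The mean normalized count was at least 10, the minimum for entering the fit over all genes, in 8 of the 9, and Ptgds was under it. Of the 15657 genes that entered, 8 were therefore members.

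RNA was sequenced from white quadriceps, a thigh muscle portion rich in fast glycolytic fibres. The mice were males of 11 to 14 weeks that had been on a diet with 60% fat for 7 days. The targeted gene, Acot2, encodes a mitochondrial thioesterase that splits long-chain acyl-CoA. The 4 libraries named Loxp (replicates 1 to 4) had the genotype Loxp/Loxp with no Cre named. The 4 libraries named Cre (replicates 5 to 8) had CKM Cre and are labelled as Acot2 knockouts in muscle. The comparison asks which transcripts differ in glycolytic muscle that lacks Acot2 under high lipid supply. The promoter named drives Cre in muscle fibres, whereas the RNA came from whole tissue with all its cell types. Since Cre is named for the knockouts alone, the recombinase and the loss of Acot2 cannot be told apart. No source used here states that the libraries came from separate animals, and p-values then measure only how far these libraries spread.

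Eicosanoids are made from arachidonic acid that phospholipase A2 frees from membranes. In the leukotriene branch, 5-lipoxygenase (Alox5) needs the membrane protein FLAP (Alox5ap) to receive its substrate and forms leukotriene A4, which Lta4h turns into leukotriene B4 and Ltc4s into leukotriene C4. In the prostaglandin branch, the cyclooxygenases Ptgs1 and Ptgs2 form prostaglandin H2, which Ptges turns into prostaglandin E2 and Ptgds and Hpgds turn into prostaglandin D2. The leukotriene genes are best known from myeloid and mast cells, and Ptgs2 as a gene induced by inflammatory and mechanical stimuli.

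Acot2 itself had normalized counts of 2179.1, 3347.7, 4165.4 and 2166.2 in Loxp replicates 1 to 4 and of 324.8, 273.4, 256.4 and 354.0 in Cre replicates 5 to 8. All Cre libraries lay below all Loxp libraries, with a log2 difference of -3.24 ± 0.20 (SE, adjusted p = 4.72e-06, limma with Benjamini-Hochberg adjustment). A normalized count is the read count of a gene divided by a scaling factor of its library, and log2 differences are Cre minus Loxp on log2(normalized count + 1). Recovered depth was 55283997 to 109101280 reads per library. Acot2 was the only gene of 15657 past the adjusted threshold of 0.05 (0.00639% of those tested), and 4215 (26.9%) had an unadjusted p under 0.05. On voom's weighting of the recovered reads the count was also 1.

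Some libraries stood apart. On the first principal component, with 34.5% of the variance, Loxp replicates 3 and 4 had scores of 55.2 and 56.1 and the other libraries scores between -38.6 and 0.56. The 3893 genes with the fewest exon bases (at most 2391, all annotated exons of a gene merged) include Alox5ap, Ltc4s and Ptgds. For these 3893 genes, the median deviation from the mean over the libraries was -0.29 and -0.31 (log2) in Loxp replicates 3 and 4. In the other libraries it was 0.06 to 0.17. The summed normalized count of 6 heart markers was 11816 in Cre replicate 8 and 851 to 1494 in the other libraries. Beside a log2 difference that moves by over 1.5 times without Loxp replicates 3 and 4, or without Cre replicate 8, the value without them is given for the genes named. In bulk RNA, fewer cells of a type and less RNA per cell cannot be told apart.

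Alox5ap (Entrez gene 11690, GRCm38 chr5:149264767-149288153, plus strand) was the only member whose groups did not overlap. Its coding sequence in the GENCODE transcript Alox5ap-201 has 486 bases, or 161 codons before the stop. The first 300 bases are shown, since the results turn on this transcript, with the start codon in capitals.

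Alox5ap coding sequence, bases 1 to 300: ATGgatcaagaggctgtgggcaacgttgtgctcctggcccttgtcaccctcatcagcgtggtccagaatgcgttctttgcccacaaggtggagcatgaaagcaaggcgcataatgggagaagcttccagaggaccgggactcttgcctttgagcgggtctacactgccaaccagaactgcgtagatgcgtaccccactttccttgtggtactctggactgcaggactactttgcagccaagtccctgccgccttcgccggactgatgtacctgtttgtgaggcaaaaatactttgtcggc

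Normalized counts of Alox5ap were 81.3, 103.5, 92.8 and 87.6 in Loxp replicates 1 to 4 and 213.3, 171.5, 207.4 and 181.9 in Cre replicates 5 to 8. Every Cre library lay above every Loxp library, and the spread within each group was small beside the gap. The means were 91.3 ± 9.41 and 193.5 ± 20.02 (SD, n = 4 each), a ratio of 2.12 and a log2 difference of 1.08 ± 0.20 (SE). The counts behind these values were 77 to 220 reads per library. Without Loxp replicates 3 and 4 the log2 difference was 1.06, and with the trend by exon length and GC content removed from each library it was 0.81. Gm19719, a gene on the opposite strand, covers 13.3% of the exon bases of Alox5ap and had at most 3 reads in any library.

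Alox5 (Entrez gene 11689, chr6:116410077-116461178, minus strand) encodes the enzyme that FLAP serves. In normalized counts it stood at 76.0, 97.5, 119.3 and 75.4 in the Loxp libraries and 123.1, 99.3, 120.9 and 107.4 in the Cre libraries. Loxp replicate 3 reached the Cre range, whereas the other Loxp libraries lay below it. The means were 92.0 ± 20.9 and 112.7 ± 11.3 (SD, n = 4 each), with a log2 difference of 0.31 ± 0.23 (SE). Without Loxp replicate 3 the groups did not overlap and the log2 difference was 0.44.

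Within a library, the number of Alox5ap reads per Alox5 read does not depend on the scaling of the library. It can depend on a trend by exon length, since the genes have 1420 and 4106 exon bases. This ratio was 1.07, 1.06, 0.778 and 1.16 in Loxp replicates 1 to 4 and 1.73, 1.73, 1.72 and 1.69 in Cre replicates 5 to 8. The Cre libraries were nearly alike and all above the Loxp libraries, with means of 1.72 ± 0.0174 against 1.02 ± 0.166 (SD, n = 4 each). The counting interval of a single ratio was wider than the spread in Cre: the 95% interval (exact binomial, counting error only) ran from 1.39 to 2.17 in Cre replicate 5 and from 0.895 to 1.51 in Loxp replicate 4. No test was made of this difference, since Alox5ap was chosen on this contrast.

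**Figure D1:**
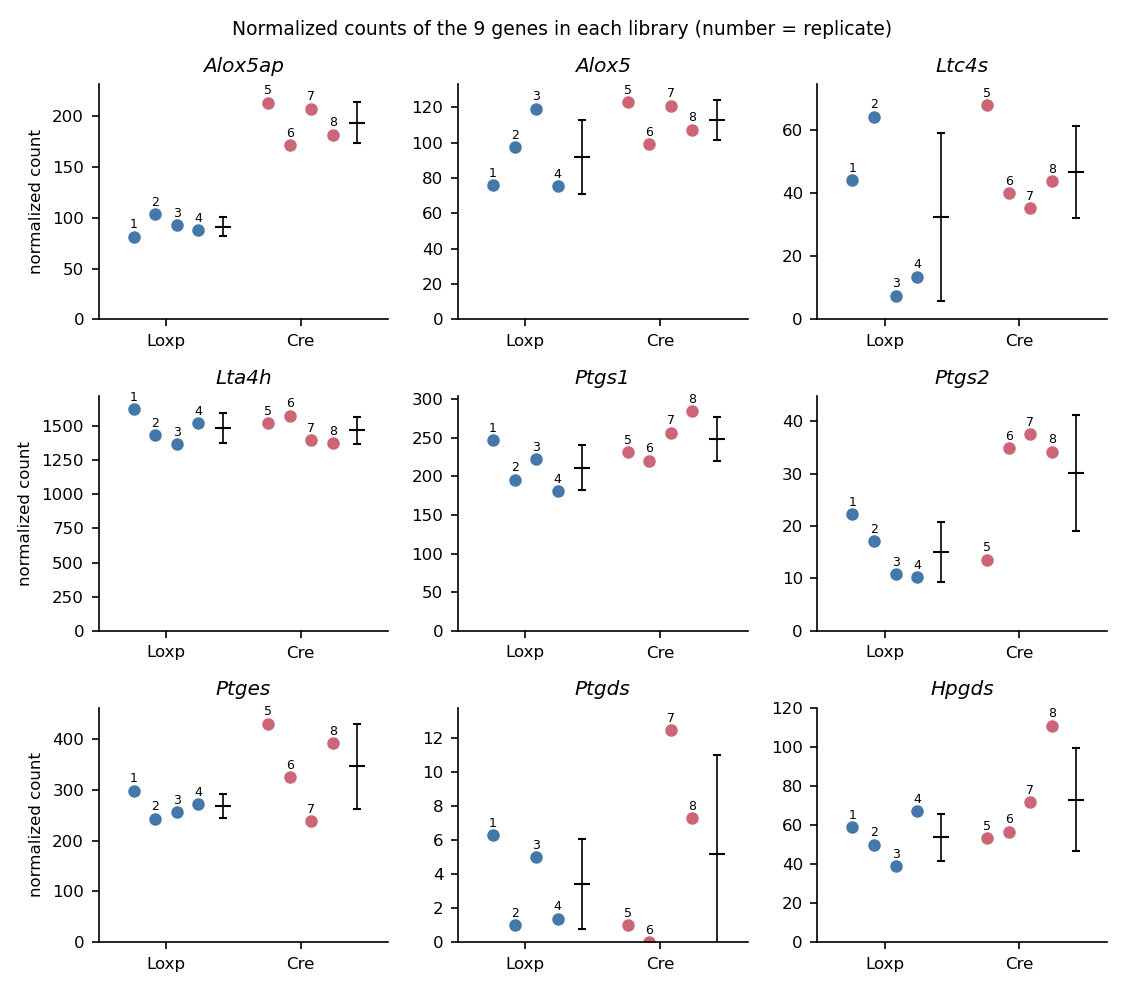
Normalized count (vertical axes, each from 0) of the 9 genes in each library, with Loxp replicates 1 to 4 in blue and Cre replicates 5 to 8 in red. Black marks are means with SD over 4 libraries (the bar of Ptgds is cut at 0), and only Alox5ap, at 81.3 to 103.5 against 171.5 to 213.3, has groups that do not overlap.

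Ltc4s (Entrez gene 17001, chr11:50236461-50238616, minus strand) encodes leukotriene C4 synthase, which conjugates leukotriene A4 with glutathione. Normalized counts were 44.3, 64.3, 7.5 and 13.6 in the Loxp libraries and 67.9, 40.0, 35.4 and 43.9 in the Cre libraries. Loxp replicates 3 and 4 were far below all other libraries, and Loxp replicates 1 and 2 lay within the Cre range. The log2 difference was 0.92 ± 0.57 (SE) over all libraries and -0.23 without Loxp replicates 3 and 4, so its direction rested on them. Without Loxp replicate 3 alone it was 0.40, and without Loxp replicate 2 alone 1.39. Ltc4s has 1014 exon bases, the fewest of the 9 genes, and 26.4% of them lie in exons of Gm26542 on the opposite strand, which had at most 9 reads.

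Lta4h (Entrez gene 16993, chr10:93453411-93484875, plus strand), the hydrolase of the leukotriene B4 route, was the most abundant of the 9 genes. It had normalized counts of 1624.0, 1432.8, 1366.7 and 1519.3 in the Loxp libraries and 1522.2, 1574.7, 1393.6 and 1374.7 in the Cre libraries. The groups covered nearly the same range, with means of 1486 ± 111 and 1466 ± 97.6 (SD, n = 4 each). Its log2 difference was -0.02 ± 0.11 (SE), was -0.06 without Loxp replicates 3 and 4 and 0.012 without Cre replicate 8, and changed sign in 5 of 22 alternative settings.

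Among the prostaglandin genes, the cyclooxygenases are shown with their promoters, because their windows differ in the motifs they hold while the enzymes share their step. Hpgds is shown because its window shares a motif with that of Ptgs1. RefSeq promoter windows (GRCm38.p6, 250 bases before to 50 after the start site) were at hand for 8 of the 9 genes, all but Alox5ap. They were searched on both strands for 4 motifs. The letters GAGGAAGT, which the myeloid factor PU.1 is known to bind, are in 3.2% of the 32851 promoters in the table. The TATA box, spelled TATAAA, is in 13.6% of them. The GC box, with the letters GGGCGG, is in 35.7%, and the E-box, spelled CACGTG, is in 7.15%. Capitals mark the matches, none of which overlaps another. A match describes the letters only.

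Ptgs1 promoter, chr2:36230176-36230475, plus strand: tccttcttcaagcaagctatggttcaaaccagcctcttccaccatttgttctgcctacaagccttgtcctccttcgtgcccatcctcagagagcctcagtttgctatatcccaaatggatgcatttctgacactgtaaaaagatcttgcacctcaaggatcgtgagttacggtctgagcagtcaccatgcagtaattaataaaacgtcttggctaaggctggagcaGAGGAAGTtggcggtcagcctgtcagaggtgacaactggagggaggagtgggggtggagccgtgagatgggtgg

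Ptgs2 promoter, chr1:150099781-150100080, plus strand: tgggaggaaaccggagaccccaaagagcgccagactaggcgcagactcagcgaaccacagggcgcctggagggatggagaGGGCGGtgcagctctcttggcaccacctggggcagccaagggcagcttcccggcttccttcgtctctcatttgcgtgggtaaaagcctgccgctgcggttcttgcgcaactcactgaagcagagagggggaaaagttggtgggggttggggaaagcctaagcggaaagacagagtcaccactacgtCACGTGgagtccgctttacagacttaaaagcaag

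Hpgds promoter, chr6:65144681-65144980, minus strand: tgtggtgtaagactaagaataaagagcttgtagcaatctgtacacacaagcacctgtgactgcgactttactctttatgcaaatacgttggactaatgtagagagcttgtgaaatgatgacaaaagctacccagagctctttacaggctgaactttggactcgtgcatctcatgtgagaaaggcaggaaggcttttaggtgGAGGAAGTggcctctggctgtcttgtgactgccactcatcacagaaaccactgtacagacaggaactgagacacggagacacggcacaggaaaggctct

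The PU.1 letters began 24 bases before the start site in Ptgs1 and 49 bases before it in Hpgds, and in no other of the 8 windows. Ptgs2 held a GC box 170 bases before its start site and an E-box that begins 16 bases after it. GC boxes were also in the windows of Alox5 and Ptges, and TATAAA was in none of the 8.

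Ptgs1 (Entrez gene 19224, chr2:36230426-36252272, plus strand) encodes the largely constitutive cyclooxygenase COX-1. Its normalized count was 246.9, 195.9, 222.1 and 180.6 in the Loxp libraries and 231.7, 220.5, 256.4 and 284.4 in the Cre libraries. The ranges overlapped, with the highest value in Cre replicate 8. The log2 difference was 0.23 ± 0.17 (SE). Gm43621 on the opposite strand, which covers 3.81% of the Ptgs1 exon bases, had at most 3 reads.

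Ptgs2 (Entrez gene 19225, chr1:150100031-150108227, plus strand) encodes the inducible COX-2 and was scarce, at 13 to 36 reads per library. Its normalized count was 22.2, 17.1, 10.8 and 10.2 in the Loxp libraries and 13.6, 34.8, 37.5 and 34.2 in the Cre libraries. Cre replicates 6 to 8 lay above all Loxp libraries, and Cre replicate 5 lay among them. The log2 difference was 0.92 ± 0.47 (SE), 0.50 without Loxp replicates 3 and 4, and 1.25 without Cre replicate 5. Per length of exon, Ptgs1 exceeded Ptgs2 in all 8 libraries, by a ratio of 18.0 ± 5.54 in Loxp and 11.4 ± 5.93 in Cre (SD, n = 4 each), and the groups overlapped.

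Ptges (Entrez gene 64292, chr2:30889471-30929863, minus strand) encodes the inducible, membrane-bound prostaglandin E synthase. Its normalized count was 297.6, 243.1, 255.3 and 271.5 in the Loxp libraries and 429.5, 323.7, 237.6 and 390.7 in the Cre libraries. Cre replicate 7 was the lowest of all 8 libraries, whereas the other Cre libraries lay above every Loxp library. This gave a log2 difference of 0.34 ± 0.19 (SE), 0.22 without Cre replicate 5 and 0.51 without Cre replicate 7. The other E synthases, Ptges2 and the co-chaperone Ptges3, exceeded Ptges per length of exon by 10.7 ± 1.64 and 33.8 ± 5.21 in Loxp and by 10.4 ± 3.27 and 31.5 ± 10.3 in Cre (ratios, SD, n = 4 each).

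The D synthases had lower mean levels per length of exon than Ptges and Ltc4s in both groups. Hpgds (Entrez gene 54486, chr6:65117293-65144908, minus strand), the hematopoietic form, had normalized counts of 59.1, 50.2, 39.0 and 67.2 in the Loxp libraries and 53.3, 56.7, 71.9 and 111.1 in the Cre libraries. Cre replicate 8, the library with the high heart markers, held the highest value, and the other Cre libraries lay within or close to the Loxp range. Between the groups, the log2 difference was 0.40 ± 0.31 (SE) and 0.18 without Cre replicate 8. Ptgds (Entrez gene 19215, chr2:25466709-25470046, minus strand), the lipocalin-type form, had normalized counts of 6.3, 1.0, 5.0 and 1.4 in Loxp and 1.0, 0.0, 12.5 and 7.3 in Cre. It was at or under 3 reads in 4 of the 8 libraries, too few to compare.

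Set side by side, 7 of the 8 members in the fit had a higher and 1 a lower estimate in Cre, with a median log2 difference of 0.37 against 0.00257 over all genes tested. Groups did not overlap for 1 of the 8, in the higher direction, and for 0 in the lower. Over all genes tested, 13.1% had groups that did not overlap, 6.06% in the higher and 7.06% in the lower direction. Since this contrast chose the members, nothing is read from their share.

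Per kilobase of exon, the order of mean levels in Loxp was Lta4h (243), Ptges (67.9), Alox5ap (64.3), Ptgs1 (54.4), Ltc4s (32.0), Alox5 (22.4), Hpgds (8.38), Ptgs2 (3.29) and Ptgds (2.07 normalized counts per kilobase). In that order the ranges from Ptges to Alox5 overlapped from each gene to the next, as did those of Ptgs2 and Ptgds. In Cre, Alox5ap stood at 136 ± 14.1 and Ptges at 87.9 ± 21.4 normalized counts per kilobase (SD, n = 4 each), and their ranges did not overlap. Alox5ap was thus second in Cre, after Lta4h at 240, and the order of the other genes was the same as in Loxp. Alox5ap transcripts exceeded Alox5 transcripts per length in both groups.

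Levels of cell type markers moved beside the members. Of 15 marker lists, 3 had a summed normalized count that was higher in every Cre library than in every Loxp library: macrophage (8924 to 12858 in Loxp, 13043 to 20626 in Cre), mast cell (731 to 1209, 1273 to 1949) and platelet (455 to 733, 1016 to 1629). Estimates were higher for 12 of 13 macrophage markers, with a median log2 difference of 0.64. That median was 0.47 without Loxp replicates 3 and 4, and 0.39 with the length and GC trend also removed. For mast cell markers in the fit, 6 of 7 estimates were higher (median 0.79), and for platelet markers 2 of 3 (median 0.68). No macrophage or mast cell marker was at or under 3 reads in every library, and of the platelet markers Gp1bb was. Of single genes tested, 6.06% were higher in every Cre library. The other 12 sums overlapped. For fibro-adipogenic progenitors, 8 of 9 estimates were higher (median 0.335), and the sums overlapped only between 164500 and 166196. For heart, 6 of 6 estimates were higher (median 1.19), with the sum of Cre replicate 8 far above the others. The neutrophil sum overlapped (13.6 to 142.7 in Loxp, 47.7 to 102.5 in Cre), and its defining genes Ly6g and Elane were at or under 3 reads in every library. The sum of the muscle fibre markers, which include Ckm and the fast myosin Myh4, overlapped at 9358850 to 11837800 in Loxp and 10333700 to 11768900 in Cre.

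Relative to these markers, the groups of Alox5ap did overlap. Alox5ap per 1000 macrophage marker counts was 6.93, 8.05, 10.4 and 7.44 in the Loxp libraries and 12.4, 13.2, 10.5 and 8.82 in the Cre libraries. Loxp replicate 3, with the lowest marker sum, was above Cre replicate 8, with the highest. The means were 8.21 ± 1.53 and 11.2 ± 1.96 (SD, n = 4 each). Alox5 per 1000 macrophage marker counts was 8.46 ± 3.32 in Loxp and 6.52 ± 1.08 in Cre, and Alox5ap per 1000 mast cell marker counts was 93.6 ± 25.1 and 119.8 ± 12.9, both with overlapping groups. The part of these markers in the differences of the members was not tested.

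**Figure D2:**
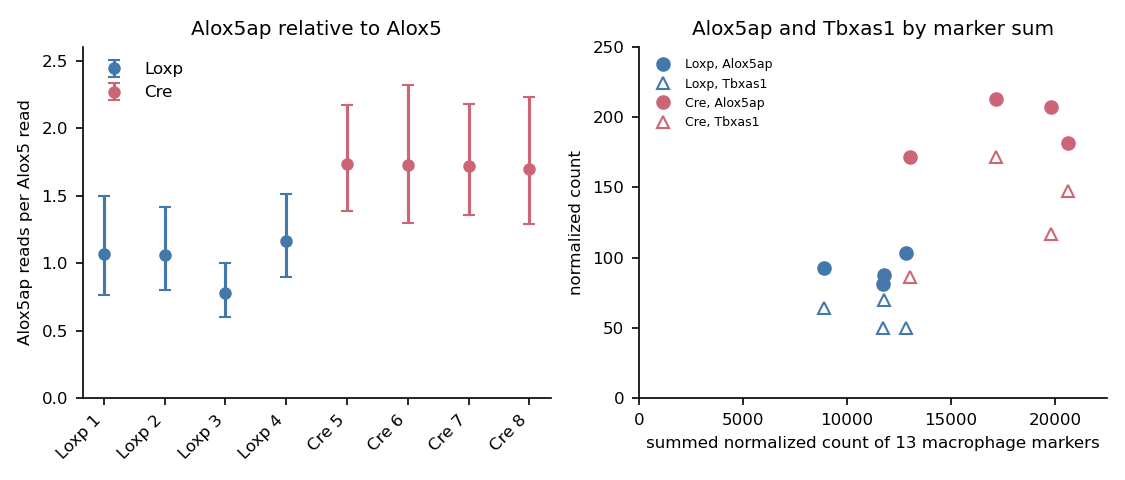
Left, Alox5ap reads per Alox5 read in each library, with 95% exact binomial intervals: the Cre libraries lie at 1.69 to 1.73 and the Loxp libraries at 0.778 to 1.16. Right, normalized counts of Alox5ap (circles) and Tbxas1 (triangles) against the summed normalized count of 13 macrophage markers, where each point is 1 library and the sum is higher in every Cre library.

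Around the 9 genes, 78 others of eicosanoid supply, synthesis, breakdown and reception were listed in 8 groups, and 55 of them entered the fit, while 5 had no read in any library. None passed the adjusted threshold by limma or by voom. At an unadjusted p under 0.05 (limma), 13 were higher and 4 lower, which is 30.9% of the 55 beside 26.9% of all genes tested. Estimates were higher for 36 and lower for 19, with a median log2 difference of 0.16. This median was 0.075 without Loxp replicates 3 and 4, and 0.056 with the length and GC trend also removed. Groups did not overlap for 6 genes in the higher and 3 in the lower direction, 16.4% beside 13.1% of all genes tested. The count of 0 rested on the libraries used, as did that over all genes. Without Loxp replicate 1, 8 passed (14.5%, beside 11.0% of all genes tested), without Loxp replicate 2, 6 passed (10.9% beside 13.1%), and with sample quality weights, 9 passed (16.4% beside 7.67%). Tbxas1, Dpep1, Fam213b and Abcc4 passed in each of these 3 settings. The lists were chosen with earlier results of these data known, so nothing is read from the shares of the 55.

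Thromboxane synthase Tbxas1, which turns prostaglandin H2 into the platelet activator thromboxane A2, came closest to Alox5ap in size. Its normalized count was 49.6, 50.2, 63.8 and 69.9 in the Loxp libraries and 171.6, 86.4, 116.7 and 147.7 in the Cre libraries. The groups did not overlap, with means of 58.4 ± 10.1 and 130.6 ± 37.1 (SD, n = 4 each). Its log2 difference was 1.12 ± 0.27 (SE, adjusted p = 0.0796, limma), which missed the threshold. Over the alternatives this log2 difference ranged from 0.97 to 1.37. Dpep1, Fam213b and Abcc4 had the same adjusted p, a tie that the adjustment gave to differing unadjusted p values. In the list of other prostanoid synthases, which includes Tbxas1, 10 genes entered the fit. All 10 had higher estimates, with a median of 0.32. Among them, Akr1c18 had a log2 difference of 0.38 ± 1.00 (SE). Its mean normalized count was nevertheless lower in Cre, at 17.5 against 19.2 in Loxp. Fam213b, which encodes a prostaglandin F synthase, was next by p after Tbxas1 in this list. Its log2 difference was 0.62 ± 0.16 (SE, adjusted p = 0.0796, limma), and its groups overlapped only between 13791 and 13827 normalized counts. It has 1027 exon bases, and its log2 difference was 0.34 without Loxp replicates 3 and 4 and 0.28 with the length and GC trend removed.

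In the list of other lipoxygenases and leukotriene genes, which also holds lipoxygenases outside the leukotriene branch, 7 of 9 estimates were higher, with a median of 0.50. Cyp4f18, an enzyme that oxidizes leukotriene B4, had normalized counts of 9.95 to 31.7 in Loxp and 37.8 to 66.7 in Cre, with no overlap. Its log2 difference was 1.35 ± 0.40 (SE, adjusted p = 0.081, limma). Dpep1, the dipeptidase that turns leukotriene D4 into E4, stood at 1438 ± 195 in Loxp and 2017 ± 77.2 in Cre (SD, n = 4 each), again with no overlap. Its log2 difference was 0.50 ± 0.12 (SE, adjusted p = 0.0796, limma).

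Only 2 of 6 leukotriene and lipoxin receptors had enough reads to enter the fit. Ltb4r1, the high-affinity leukotriene B4 receptor, had normalized counts of 20.1 to 40.1 in Loxp and 49.4 to 85.1 in Cre, with no overlap and a log2 difference of 0.93 ± 0.33 (SE, adjusted p = 0.107, limma). Cysltr1, a receptor for cysteinyl leukotrienes, had a log2 difference of -0.31 ± 0.26 (SE) with overlapping groups, and of -0.021 without Loxp replicates 3 and 4. The 7 prostanoid receptors in the fit had a median of 0.14. Their smallest p values belonged to Tbxa2r, the thromboxane receptor, at 0.55 ± 0.38, and Ptgfr, the prostaglandin F receptor, at 0.47 ± 0.34 (log2 difference ± SE), both with overlapping groups. Without Loxp replicate 4 these were 0.20 and 0.25, without Loxp replicates 3 and 4 they were 0.16 and 0.22, and without Cre replicate 8 they were 0.28 and 0.31.

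In the group of breakdown and transport, 5 of 7 estimates were lower, with a median of -0.25. Abcc4, an exporter of prostaglandins, had normalized counts of 882 to 1498 in Loxp and 718 to 829 in Cre, with no overlap. Its log2 difference was -0.56 ± 0.16 (SE, adjusted p = 0.0796, limma), and was -0.29 without Loxp replicates 3 and 4. Ptgr1, a reductase that inactivates leukotriene B4 and prostaglandins, had a log2 difference of 0.72 ± 0.22 (SE, adjusted p = 0.0852, limma), with groups that overlapped only between 179.3 and 180.6 normalized counts.

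Upstream, estimates were split evenly in the 8 genes of arachidonate supply, 4 each way, around a median log2 difference of -0.03. Fads2, the delta-6 desaturase, had normalized counts of 175.8 to 256.4 in Loxp and 108.7 to 165.1 in Cre, with no overlap and a log2 difference of -0.49 ± 0.21 (SE, adjusted p = 0.152, limma). Lpcat2, a lysophospholipid acyltransferase, had a log2 difference of 0.83 ± 0.43 (SE) with overlapping groups. Of the phospholipase A2 group, 7 of 16 genes entered, with a median of 0.28. Its regulator Anxa1 had normalized counts of 1510 to 2125 in Loxp and 2195 to 2660 in Cre, with no overlap and a log2 difference of 0.37 ± 0.13 (SE, adjusted p = 0.0975, limma), which was 0.20 without Loxp replicates 3 and 4. The secreted phospholipase Pla2g12a had overlapping groups and a log2 difference of 0.28 ± 0.18 (SE), which was 0.076 without Loxp replicate 4 and 0.0044 without Loxp replicates 3 and 4. The epoxide hydrolases Ephx1, at 0.19 ± 0.19, and Ephx2, at 0.12 ± 0.15 (log2 difference ± SE), also had overlapping groups. Without Cre replicate 8 these were 0.29 and 0.074, and Ephx2 was at 0.027 without Loxp replicates 3 and 4.

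**Figure D3:**
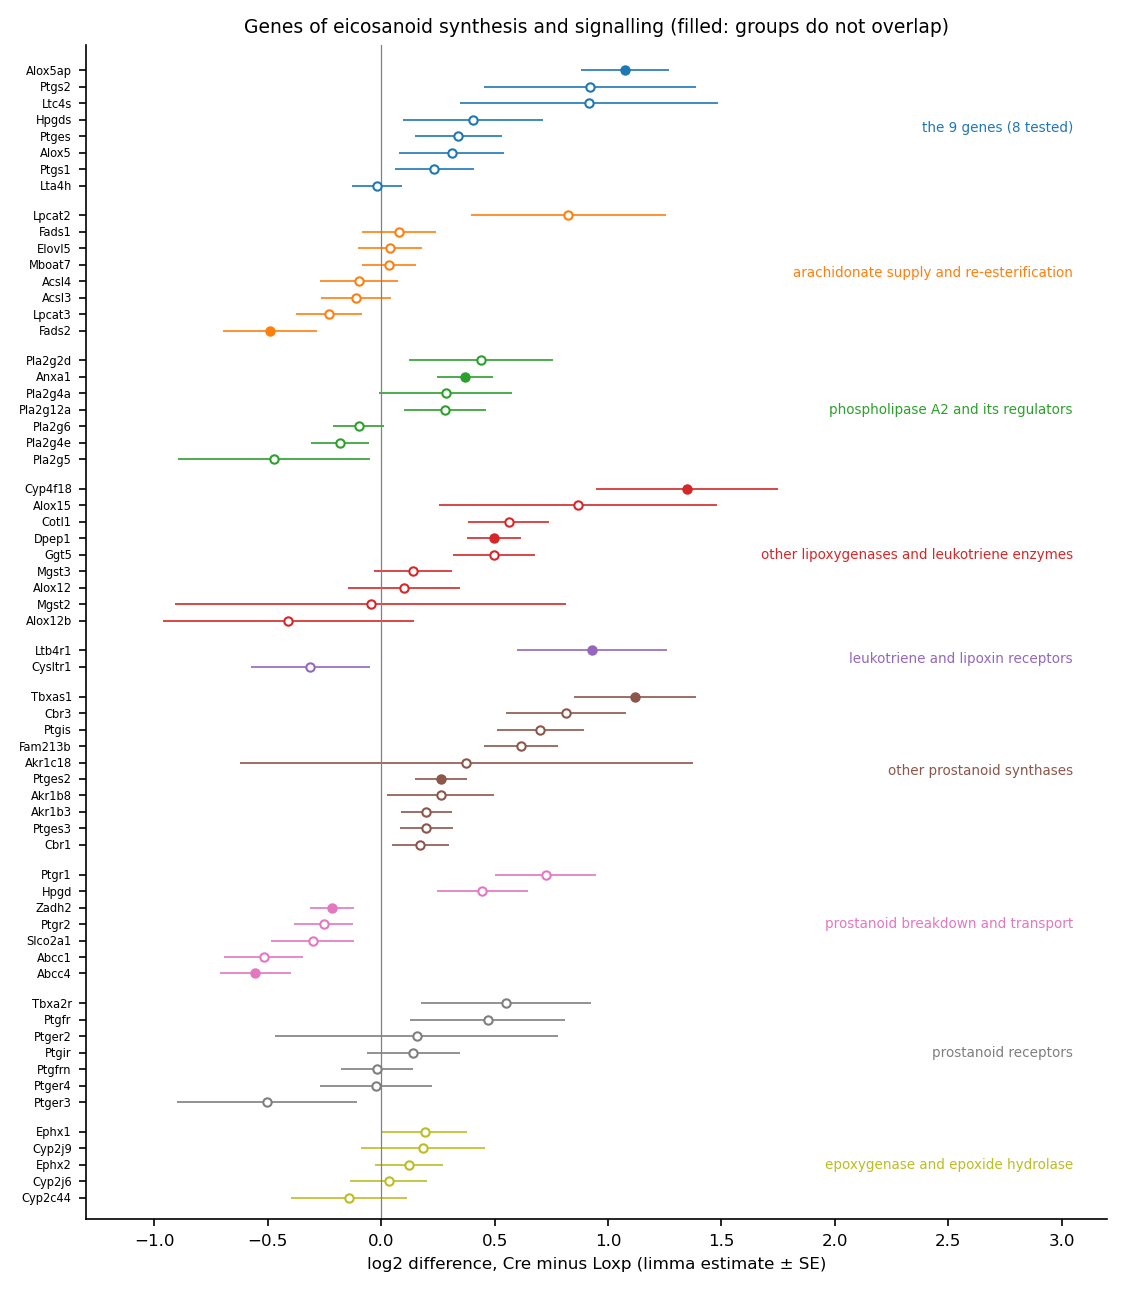
Log2 difference, Cre minus Loxp, of the 8 members in the fit and of the 55 other genes in 8 groups, as limma estimate with SE. Filled points are genes whose groups do not overlap: Alox5ap at 1.08 among the members, and 6 higher and 3 lower among the others.

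The genes whose log2 values followed Alox5ap most closely over the 8 libraries were H2-DMb1 (Pearson r = 0.99), Cdca7l (0.97), Ifnar2 (0.97), Akip1 (0.96), Dok1 (0.96) and C1s1 (0.95). All 6 had higher values in every Cre library, so the likeness holds the difference between the groups. H2-DMb1, which encodes a chain of the class II peptide-loading chaperone, had mean normalized counts of 156 in Loxp and 317 in Cre. With each group mean subtracted, the 6 closest were Phf11d (r = 0.99), Spata2l (0.98), AC114585.1 (0.98), Mcm4 (0.98), Cd276 (0.96) and Zmiz1os1 (0.96), none of which is in the first set. Among the members, Alox5 was closest by both measures, at r = 0.70 and 0.69, but only at ranks 1339 and 416 among the genes tested. These are descriptions over 8 libraries that share depth and composition differences.

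**Figure D4:**
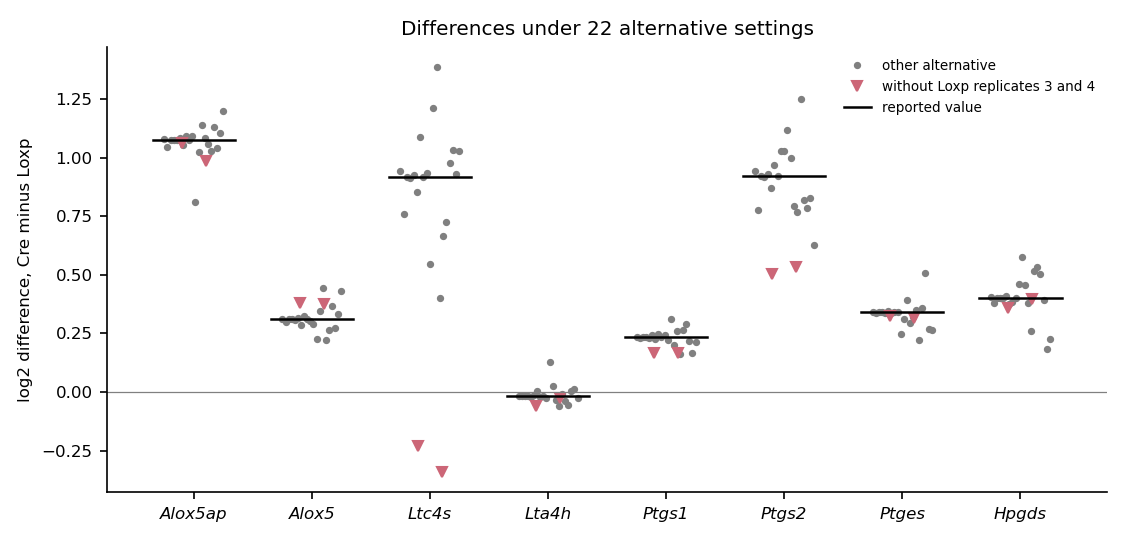
Log2 difference, Cre minus Loxp, of the 8 members in the fit under the alternative settings (grey points), with the reported value as a black line and the fits without Loxp replicates 3 and 4 as red triangles. Alox5ap lies between 0.81 and 1.201, and the triangles of Ltc4s lie below 0, at -0.23 and -0.34.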

How the data were processed

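Per the labels' protocols, a Norgen Biotek kit gave total RNA of white quadriceps and a NEBNext Ultra II kit the libraries. The submitters' processing notes name DESeq2, STAR, HTSeq, cutadapt and FastQC and the build GRCm38. The sources used here give no versions, annotation or strand setting. Each deposited value is a log2, inferred from the numbers to be log2(normalized count + 1): in each library they are whole multiples of 1 step (0.679 to 1.29), with 100% of values between 1 and 1000 reads within 0.1 of a whole read.

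Where the mean normalized count reached 10, genes were fitted with limma 3.58.1 (R 4.3.3; trend and robust eBayes, Benjamini-Hochberg at 0.05). The limma script was tested on simulated data. Since the deposited unit is log2, no count model was the main test, and voom was run on recovered reads. The floor of 3 reads is a normalized count of 2.04 to 3.87. Replicates were compared by chi-square per gene (35.4 to 265 over 12 pairs) and each counted as a sample.

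The 9 members and all lists were chosen with earlier results of these data known. Genes named were the members, Acot2, the 2 of smallest p in each of 8 lists, and the 6 most like Alox5ap by each measure. Ptges2 and Ptges3 were chosen after their values were seen, and Akr1c18 was also named outside this rule. Exon lengths and overlaps came from GENCODE M21 (GRCm38), and promoters from RefSeq. Exon length is that of all annotated exons of a gene merged, so it can exceed the length of any 1 transcript. Levels per length of exon use this length. A spreadsheet had turned 27 gene names into dates; none is listed here. The alternatives changed the pseudocount, the filter, the scaling or the variance model, or were removal of the length and GC trend (loess, span 0.5), and libraries left out. Tables and plots were made in Python 3.11.15 with pandas 2.3.3, numpy 2.4.6, matplotlib 3.10.9 and scipy 1.17.1.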

Additional observations from a re-analysis of the deposited data

Results flagged for a closer look

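Ptgs2 in Cre replicate 5 had a normalized count of 13.6, whereas Cre replicates 6 to 8 lay at 34.2 to 37.5. The gap to the nearest library was 0.861 of the range of the group, above Dixon's 95% critical value for 4 samples. It was the only such value in 50 groups examined. Chance gives about 1 in 20 groups, which is more than this, so nothing is read from the flag.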

How the results depend on the processing

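Over 22 alternative settings, Acot2 kept its direction and stayed past the threshold (log2 difference -3.44 to -3.06). The count of genes past the threshold, 1 as reported, was 2 with no filter on low values, 2 with equal library totals, 7 without the trend and robust options, 4 with the length and GC trend removed, 1201 with sample quality weights and 2 without Cre replicates 6 and 8. Leaving out each library in turn it was 1 to 2048, with 1722 without Loxp replicate 1 and 2048 without Loxp replicate 2. The other pathway genes past it numbered 0 as reported, 9 with sample quality weights and 0 to 8 with a library left out. Members with groups that did not overlap numbered 1 as reported, 1 to 2 with a library left out, 2 without Loxp replicates 3 and 4 (also with the trend removed) and 2 without Cre replicates 6 and 8; fewer samples leave less room for overlap. Among the members, the estimate changed sign for Ltc4s without Loxp replicates 3 and 4 (-0.23, and -0.34 with the trend also removed) and for Lta4h in 5 settings (up to 0.13, with the trend removed). Among the other named genes it did so for Cysltr1 (0.043) and Ephx2 (-0.00026) without Loxp replicates 3 and 4 and with the trend removed, Ephx1 (-0.027) with the trend removed, and Ephx2 without Loxp replicate 4 (range -0.033 to 0.215 with a library left out). The cause was not tested. Of the members' values, 170 moved by less than the SD between replicates and 4 by more. Leaving out 1 of 4 libraries cannot move a value by more than this SD. A change of the filter or of the variance options alone leaves the log2 difference as it was. Many of the 170 were therefore fixed in advance, and no stability is read from them. No paired analysis was possible because the groups share no replicate numbers. Ptgs2, Ltc4s and Ptgds, at 0 to 70 reads per library, are limited by depth.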
